A study of Mus musculus with 3 samples.

Results

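Disease-associated phagocyte genes are transcripts that microglia and macrophages raise around amyloid plaques, in demyelination and in ageing brain. A list of 10 such genes was followed across the cell classes of the mouse nucleus accumbens, chosen by symbol: Spp1, Lgals3, Gpnmb, Apoe, Lpl, Cst7, Trem2, Tyrobp, Itgax and Clec7a. Of these, 9 matched a feature by symbol among 28001 features, and Clec7a was not analysed here. The tissue came from Thy1::ChR2 mice, in which a Thy1 promoter, active in neurons, drives the light-gated channel channelrhodopsin-2. FLiCRE, a tool that records coincident light and calcium as transcription of a reporter, was used during ChR2 stimulation in the nucleus accumbens, per the labels. All 3 samples belong to this single group, from a coronal dissection of 400 µm, so all comparisons set one cell class against another within libraries. The labels do not give the age of the mice or say whether the samples are separate animals, and p-values then measure only the spread between these samples, which may be technical.

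Trem2 is a receptor for lipids and lipoproteins on microglia and other myeloid cells, and it signals through the adaptor Tyrobp (DAP12). In the mouse brain the shift of microglia from a homeostatic to a disease-associated state is known to proceed with loss of P2ry12 and Tmem119 transcripts, and its later step depends on Trem2. The genes fall into roles: the surface receptor Trem2 with its adaptor Tyrobp and the integrin chain Itgax (CD11c); the lipid carrier Apoe and the lipase Lpl; the secreted proteins Spp1 (osteopontin) and Lgals3 (galectin-3); and Gpnmb, a glycoprotein of lysosomal and melanosomal membranes, with Cst7 (cystatin F), an inhibitor of lysosomal cathepsins. Apoe is also a main product of astrocytes, Lpl is made by some neurons, and Cst7 is also known from cytotoxic lymphocytes.

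PU.1 is a transcription factor of the myeloid lineage, and its core was therefore searched in the promoters of the listed genes. The core was spelled GAGGAAG and was searched on both strands of the 250 bases before each start in RefSeq (GRCm38.p6). It was found in windows of 2 of the 7 analysed genes with an entry, Trem2 and Spp1, and in 10.6% of all 32851 windows. The E-box CACGTG, the core of the motif of lysosomal gene regulators, was in windows of 0 of the 7 genes and in 6.02% of all windows. Lines show the 120 bases before the start on the plus strand, with the PU.1 core in capitals: Trem2, the lipid receptor, is at chr17:48346281-48346400; Spp1, found in few cells, has a first start after chr5:104434991-104435110; Lgals3, higher in the MHC-II class, is at chr14:47373740-47373859; Cst7, lower there, is at chr2:150570295-150570414.
Trem2: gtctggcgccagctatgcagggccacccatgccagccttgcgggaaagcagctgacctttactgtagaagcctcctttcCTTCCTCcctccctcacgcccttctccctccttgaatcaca
Spp1: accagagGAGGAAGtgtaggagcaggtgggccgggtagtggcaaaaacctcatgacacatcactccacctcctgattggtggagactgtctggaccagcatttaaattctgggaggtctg
Lgals3: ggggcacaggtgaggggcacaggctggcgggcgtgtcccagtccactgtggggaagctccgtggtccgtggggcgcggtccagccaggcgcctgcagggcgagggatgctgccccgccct
Cst7: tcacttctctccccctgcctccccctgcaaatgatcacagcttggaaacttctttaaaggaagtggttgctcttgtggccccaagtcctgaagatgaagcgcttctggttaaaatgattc
The match starts 41 bases before the start of Trem2 and 113 bases before that of Spp1, written as positions -41 and -113, and the second Spp1 start has no match. The first Spp1 start lies 7 bases from the nearest transcript start in GENCODE, and the second coincides with one. The start of Lgals3 lies 29 bases from the nearest, and those of Trem2 and Cst7 coincide with one. A match is a description of letters and shows no binding.

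After filtering, 9923 cells were used (2306, 5783 and 1834 in libraries 1 to 3), with 2788685, 14563414 and 6267259 UMIs, that is, counted RNA molecules. The libraries are named by the number that ends their cell barcodes, which the labels do not tie to a replicate number, and they shared 7 to 22 barcode sequences in pairs. Cells were sorted into classes by UMI sums of marker genes: 7721 cells passed a single gate, 720 passed more than one and were set aside as mixed, and 1482 passed none. Library 2 stood apart for Spp1: a UMI was found in 27.7% of its D1 neurons (neurons with Drd1), a type that should lack the gene, against 0% and 1.09% in libraries 1 and 3. A count of 0 among the D1 neurons of library 1 allows a share of up to 2.48%. Shares are therefore read beside those of D1 neurons, whose median depth was 2531 UMIs against 1036 in microglia.

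Microglia were cells with at least 1 UMI of P2ry12 or Tmem119 and numbered 420 (86, 238 and 96). All 8 further microglia markers were detected in them, at a summed 13242 to 15999 CPM over libraries, where CPM scales a gene's UMIs to all UMIs of its class and library. The second class held at least 5 UMIs of Cd74 and 3 MHC class II genes and no P2ry12 or Tmem119, and numbered 190 cells (79, 90 and 21). The gene list's rule calls these cells macrophages. Against microglia their leading genes were Cbfa2t3, Napsa, Plbd1, Ccr7 and Ifitm1, and Ccr7 is the homing receptor of mature dendritic cells, so they are called MHC-II cells here. Their macrophage markers summed to 3629 to 18636 CPM, B cell markers to 16.2 to 211 CPM and the mature dendritic cell markers Ccr7 and Ccl22 to 178 to 592 CPM, while T cell markers were at 0. In microglia the B cell and mature dendritic markers reached at most 29.1 and 11.6 CPM, and the macrophage markers summed to 13215 to 16433 CPM, above MHC-II cells in libraries 2 and 3.

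Trem2, the lipid receptor, was at 2246, 1168 and 1470 CPM in microglia of libraries 1 to 3 (1628 ± 556, SD, n = 3) and at 894, 338 and 48.6 CPM in MHC-II cells (427 ± 429). The 3 microglia values were all above the 3 values of MHC-II cells. A Trem2 UMI was found in 80.2%, 55.5% and 63.5% of microglia and in 31.6%, 20% and 14.3% of MHC-II cells. In D1 neurons the share was at most 4.67%. With each cell thinned to 1000 UMIs, which left out 202 microglia and 80 MHC-II cells, the Trem2 shares were 88.6%, 64.4% and 71.4% in microglia.

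Tyrobp, the adaptor of Trem2, was at 5498, 2476 and 2900 CPM in microglia (3625 ± 1636) and at 3404, 1653 and 1199 CPM in MHC-II cells (2085 ± 1164). Both classes were above each value of D1 neurons (44.1, 79.7 and 4.18 CPM), and they overlapped each other, since library 1 was highest in both. Shares of cells with a Tyrobp UMI were 93.0%, 79.0% and 69.8% in microglia and 72.2%, 71.1% and 66.7% in MHC-II cells. The highest D1 share was 17.0%, in library 2.

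Itgax, the CD11c chain common on dendritic cells, rested on few molecules: 15 UMIs in microglia and 11 in MHC-II cells. It was at 26.0, 28.8 and 17.4 CPM in microglia and at 30.1, 35.9 and 48.6 CPM in MHC-II cells. The floor that 3 counts set in library 1 is 26.0 CPM in microglia and 30.1 CPM in MHC-II cells, so these values lie near what the depth can show. In the class of D1 neurons 1 UMI was counted over all libraries.

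Apoe, the lipid carrier, was spread over 4 classes. It was at 35207, 16184 and 15807 CPM in microglia (22399 ± 11093), at 41128, 19258 and 3889 CPM in MHC-II cells (21425 ± 18714) and at 25255, 25495 and 13934 CPM in astrocytes (21561 ± 6607). Cells of the Mrc1 gate, set for border macrophages, gave 31757, 30015 and 21611 CPM from 22 cells. The ranges of these 4 classes over libraries overlap, and no order among them can be read. Of all 128020 Apoe UMIs, 32.4% lay in astrocytes, 9.25% in microglia and 5.48% in MHC-II cells. The share of cells with an Apoe UMI was 86.6% in microglia of library 2 but 92.0% in its D1 neurons, so this share is not read as expression there. The level in those D1 neurons was 1187 CPM, well below that of microglia.

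Lpl, the lipase that frees fatty acids from lipoproteins, had most of its UMIs outside phagocytes. Neurons held 67.2% of its 1292 UMIs, microglia 3.25% and MHC-II cells 0.387%. These shares also follow class size, with 1401 D1 neurons and 420 microglia. The mean level in microglia was 90.4 ± 113 CPM. Lpl was at 138, 105 and 105 CPM in D1 neurons (116 ± 19.6) and at 105, 84.5 and 77.9 CPM in D2 neurons, which carry Drd2 or Adora2a (89.3 ± 14.3). In microglia it was at 217, 54.4 and 0 CPM, and in MHC-II cells at 30.1, 14.4 and 0 CPM. Microglia of library 1 were thus above the neurons, those of library 2 below, and 0 of the 96 microglia of library 3 had a UMI, which allows a share of up to 3.12%. Glutamatergic neurons had 0, 13.6 and 3.12 CPM.

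Spp1, secreted osteopontin, varied more between libraries than between the phagocyte classes. It was at 1639, 803 and 436 CPM in microglia (959 ± 617) and at 1687, 1401 and 16.2 CPM in MHC-II cells (1035 ± 894). MHC-II cells were above microglia in libraries 1 and 2 and below in library 3, where 21 MHC-II cells held 1 Spp1 UMI. Few cells carried the gene: the 5 highest microglia held 59% of the class's 515 UMIs, and the 5 highest MHC-II cells held 76.4% of 364.

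Shares of cells with a Spp1 UMI were 17.4%, 15.5% and 8.33% in microglia and 11.4%, 22.2% and 4.76% in MHC-II cells. In library 2 both lie below the 27.7% of D1 neurons and are not read as expression. After thinning the library 2 shares were 16.1% in microglia and 29.1% in MHC-II cells against 12.5% in D1 neurons. The Mrc1 gate gave 10309, 4145 and 0 CPM of Spp1, of which 5 cells held 97.0%. The 3 cells of that gate in library 1 had no Mrc1 UMI.

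Lgals3, the galectin, was at 1586, 1193 and 599.5 CPM in MHC-II cells (1126 ± 497) and at 1275, 381 and 151 CPM in microglia (602 ± 594). MHC-II cells were higher in each of the 3 libraries, although the ranges overlap. A UMI of Lgals3 was found in 36.7%, 43.3% and 42.9% of MHC-II cells and in 25.6%, 11.3% and 8.33% of microglia. Here the 2 classes did not overlap, and D1 neurons reached at most 8.35%. After thinning the shares were 50%, 47.3% and 23.1% in MHC-II cells and 40.9%, 15.3% and 8.93% in microglia, and the classes overlapped.

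Gpnmb, the lysosomal glycoprotein, was at 451, 115 and 69.7 CPM in microglia (212 ± 208) and at 633, 115 and 0 CPM in MHC-II cells (249 ± 337). Library 1 was highest in both classes. The 0 of 21 MHC-II cells in library 3 allows a share of cells with a UMI of up to 14.3%. The 5 highest cells held 60.0% of Gpnmb UMIs in microglia and 65.8% in MHC-II cells.

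Cst7, the cathepsin inhibitor, was at 390.2, 214 and 198 CPM in microglia (267 ± 107) but at 30.1, 14.4 and 0 CPM in MHC-II cells (14.8 ± 15.1), from 146 and 5 UMIs. The classes did not overlap. Microglia held 42.8% of the 341 Cst7 UMIs of all cells used. T cells were the other class with Cst7, at 219, 142 and 245 CPM (202 ± 53.5) from 18 UMIs, a range that overlaps that of microglia. Outside microglia, MHC-II cells and T cells no class exceeded 11.3 CPM in any library.

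**Figure D1:**
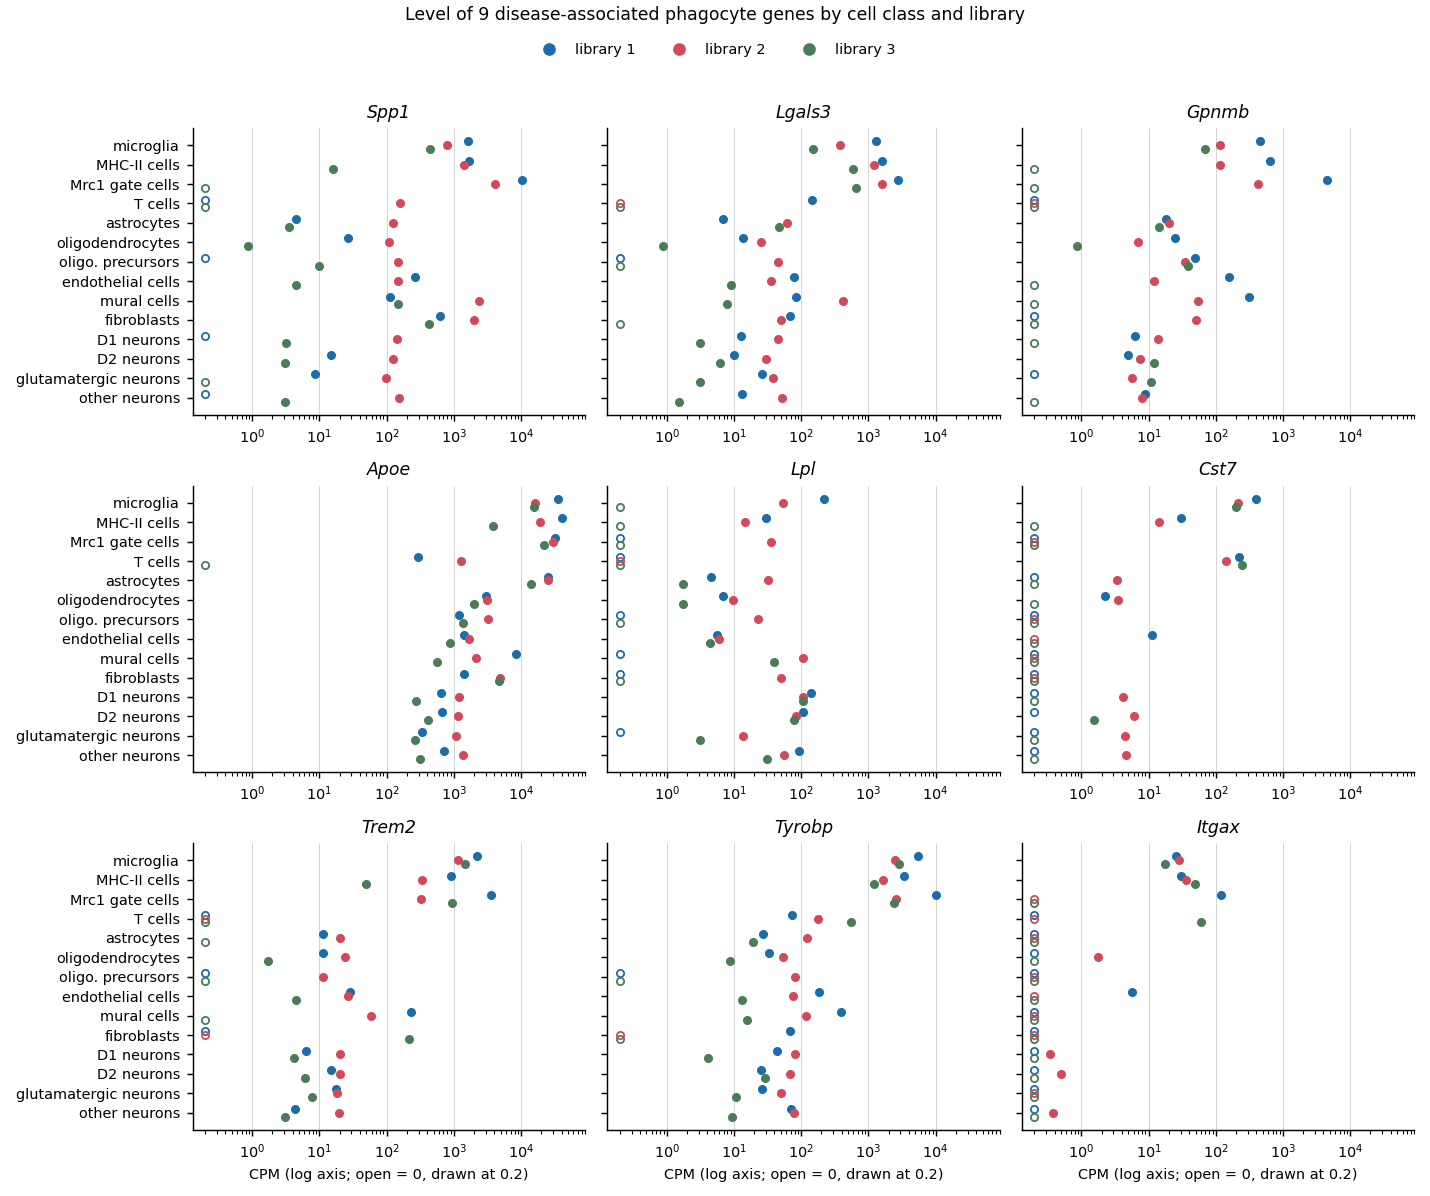
Level of each gene (CPM, log axis) in 14 cell classes, with 1 point per library and open points for libraries at 0, drawn at 0.2. Cst7 stands at 198 to 390.2 CPM in microglia and at 142 to 245 CPM in T cells, Lpl at 77.9 to 138 CPM in D1 and D2 neurons, and Spp1 of library 2 at 98.4 CPM or above in each of the 14 classes.

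MHC-II cells were set against microglia first, by edgeR's quasi-likelihood test on sums per library with the library as a block and Benjamini-Hochberg adjustment over all genes tested. Lgals3 was called higher in MHC-II cells, and Cst7 and Tyrobp were called lower. Trem2, Spp1, Gpnmb and Apoe did not pass. Of the 1761 genes tested, 16.7% passed, 7.72% as higher and 8.97% as lower, beside 1 higher and 2 lower among the 7 listed genes tested. A gene that clears the count minimum only through the class where it is high has to differ, so these counts are a description. The listed genes had a median log2 fold change of -0.41, and all genes tested one of -0.00. Leaving out library 1, 2 or 3 gave 231, 107 and 185 genes in place of 294, and 2, 1 and 3 listed genes in place of 3. Lpl and Itgax were too low in these sums to be tested.

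Cst7 gave a log2 fold change of -3.92 (SE 0.476) and was lower in MHC-II cells in 3 of 3 libraries. With 146 UMIs in microglia and 5 in MHC-II cells, it cleared the count minimum only through microglia, so its call is not read. Lgals3 gave 1.27 (SE 0.305, edgeR adjusted p 0.0298), higher in 3 of 3 libraries. It passed under 6 of 14 alternative settings, whose adjusted p ran from 0.00751 to 0.528. The call ended without library 2 (0.253) or library 3 (0.118), without the 5 cells with most Spp1 in each class (0.352) and without the library block (0.528).

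Tyrobp gave -0.79 (SE 0.163, edgeR adjusted p 0.00639), lower in 3 of 3 libraries. It passed under 7 of 14 alternatives (0.000415 to 0.630), and lost its call with DESeq2 (0.157), without the library block (0.594) and without library 1 (0.0523) or library 2 (0.0561). Trem2 stood at -2.04 on the log2 scale (SE 0.668, edgeR adjusted p 0.181) and was lower in 3 of 3 libraries. It passed with DESeq2 (0.00104) and under 4 other alternatives. At 48.6 CPM in the MHC-II cells of library 3, Trem2 cleared the count minimum only through microglia, so the DESeq2 call is not read. Spp1 (-0.08, SE 0.825), Gpnmb (0.10, SE 0.420) and Apoe (-0.41, SE 0.659) had standard errors that leave changes of either direction possible.

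Markers of other cells moved with this comparison. Mature dendritic cell markers were at 178 to 592 CPM in MHC-II cells and 0 to 11.6 CPM in microglia. Genes that dissociation of tissue is known to raise summed to 1777 to 2616 CPM in MHC-II cells and 3100 to 5625 CPM in microglia. The part of these in the differences of Lgals3, Cst7 and Tyrobp was not tested. The 37 MHC-II cells with a B or dendritic cell marker had Lgals3 at 893, 252 and 1108 CPM in libraries 1 to 3, against 1873, 1314 and 469 CPM in the other 153. Lgals3 was thus lower in the marked cells of libraries 1 and 2 and higher in those of library 3. Their Spp1 was at 1203, 62.9 and 0 CPM, against 1887, 1574 and 20.4 CPM. Without those 37 cells Tyrobp did not pass (edgeR adjusted p 0.0853).

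Other genes of the state and its pathways were read in the same fit, from lists chosen by function. Genes that cleared the count minimum only through microglia had to come out lower, so the counts are descriptions. Of the genes named below, these were Gpr34, Olfml3, Lcp2, Lrp1, Abca1, Mertk, Serpine2 and Ccl4. They had means of 11.5 to 84.3 CPM in MHC-II cells, and their calls are not read. Of the 12 homeostatic microglia genes, P2ry12 and Tmem119 set the gate and are left out. Of the remaining ones 8 were tested and 8 were lower in MHC-II cells (median -3.09), beside 8.97% of all genes tested. Among them were Gpr34, a lysophospholipid receptor (-3.79), and Olfml3 (-3.64). Of 5 Trem2 signalling genes tested, 1 was lower, the adaptor Lcp2 (-2.95), with a list median of -0.39. Of 13 lysosomal genes tested, 5 were lower (median -1.15). These included Ctsz, a cathepsin (-1.46, edgeR adjusted p 0.00571), and Grn, the lysosomal protein progranulin (-1.28, 0.000487).

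Lipid handling genes gave 2 lower of 5 tested (median -1.41), the lipoprotein receptor Lrp1 (-1.52) and the cholesterol exporter Abca1 (-1.41). The list of 9 Spp1 and galectin-3 receptors gave 3 lower of 3 tested. Among them were the phagocytic receptor Mertk (-3.18) and the integrin chain Itgb5 (-2.31, edgeR adjusted p 0.000386). Of 12 other disease-associated genes tested, 5 were lower and 1 was higher (median -0.40). Serpine2, a protease inhibitor, was at -4.62 and the chemokine Ccl4 at -3.61, and the surface glycoprotein Cd52 rose by 0.86 (edgeR adjusted p 0.0152).

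Microglia were next set against all gated non-phagocyte cells (7089 cells of neuronal, glial, vascular and T cell classes). Of 10142 genes 36.2% passed, 17.4% as higher, beside 8 of the 9 listed genes, all higher. The listed genes had a median log2 fold change of 5.11 and all genes tested one of -0.17. A gene that clears the count minimum only through microglia has to differ, so the count is a description. Log2 fold changes were largest for Trem2 (7.68, SE 0.575), Tyrobp (7.02, SE 0.556) and Cst7 (6.83, SE 0.471, from 146 against 69 UMIs). The edgeR adjusted p of Tyrobp was 5.00e-05. Trem2 and Cst7, at 13.6 ± 8.93 and 3.59 ± 2.26 CPM in non-phagocyte cells, cleared that minimum only through microglia. Their calls, and that of Itgax with 15 against 7 UMIs, are not read.

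The secreted and lipid genes had smaller fold changes over non-phagocyte cells. Apoe rose by 3.06 (SE 0.178, edgeR adjusted p 2.10e-05). Log2 fold changes were 5.11 for Spp1 (SE 0.770), 4.91 for Lgals3 (SE 0.580) and 4.18 for Gpnmb (SE 0.316). In non-phagocyte cells Spp1 was at 75.7 ± 91.0 CPM, Lgals3 at 26.4 ± 21.0 CPM and Gpnmb at 16.9 ± 15.0 CPM. Spp1, Lgals3 and Gpnmb cleared the count minimum only through microglia, so their calls are not read. Lpl was at 1.05 (SE 0.802, 0.349) and did not pass. Without library 1, 2 or 3 the test called 1753, 910 and 664 genes and 7, 7 and 6 listed genes. Spp1 lost its call without library 1 (0.101) or library 3 (0.106), and Lgals3 without library 3 (0.0781). With a microglia gate of 3 UMIs Spp1 (0.449) and Apoe (0.0855) lost their calls and Itgax was too low to be tested. Beside them 10 of 10 homeostatic genes other than the gate genes P2ry12 and Tmem119, 10 of 10 Trem2 signalling genes and 14 of 14 lysosomal genes tested were higher in microglia. Those that cleared the count minimum only through microglia had to differ, so these counts are descriptions.

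In MHC-II cells over the same non-phagocyte cells, 29.5% of 9992 genes passed, 13.3% as higher, beside 7 higher among the 8 listed genes tested. The listed genes had a median log2 fold change of 4.75 and all genes tested one of -0.42. Itgax, with 11 against 7 UMIs, and Trem2, at 13.6 ± 8.93 CPM in non-phagocyte cells, cleared the count minimum through the MHC-II cells. So did Lgals3 (26.4 ± 21.0 CPM in non-phagocyte cells) and Spp1 (75.7 ± 91.0 CPM). Gpnmb (16.9 ± 15.0 CPM) did not clear it on non-phagocyte cells alone. The calls of all these genes are not read, and the count of listed genes is a description. Tyrobp rose by 6.07 (SE 0.384, edgeR adjusted p 5.87e-07) and Apoe by 2.48 (SE 0.384, 0.00268). Log2 fold changes were 6.14 for Lgals3 (SE 0.392), 5.19 for Trem2 (SE 0.503) and 4.30 for Spp1 (SE 0.635). Gpnmb was at 4.01 (SE 0.567) and was higher in 2 of 3 libraries. Lpl was at -1.01 (SE 0.731, 0.325), and Cst7 could not be tested. Without library 2 none of these genes passed in edgeR, nor did any of all genes tested, although 2361 had an unadjusted p under 0.05. Without library 1 or 3, 602 and 424 genes passed, of which 3 and 4 were listed. This comparison and the former share their non-phagocyte cells.

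**Figure D2:**
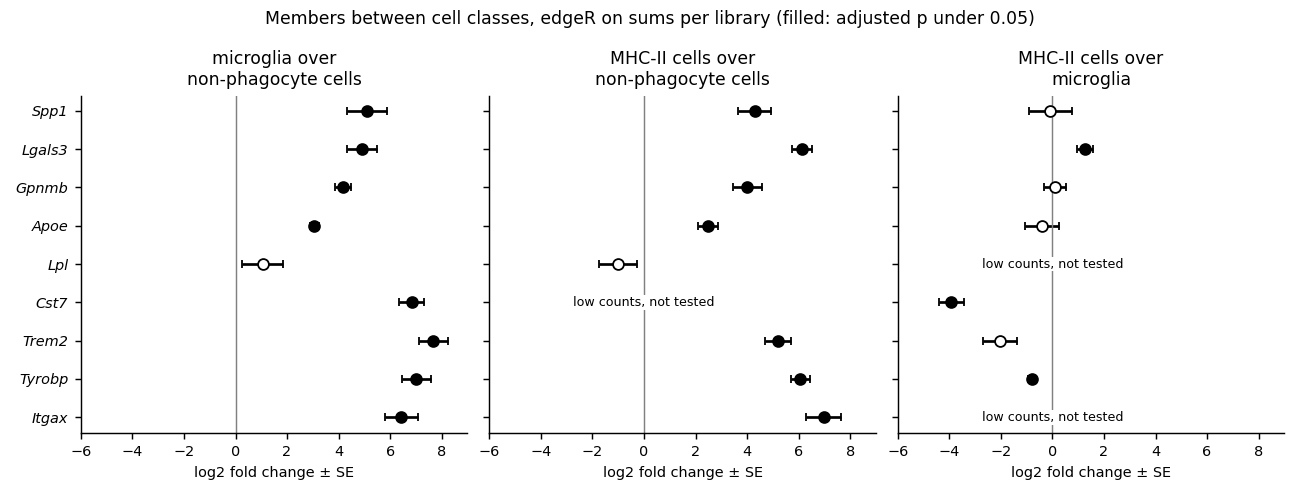
Log2 fold change ± SE of each gene in 3 comparisons of cell classes, with filled points for an adjusted p under 0.05. Between MHC-II cells and microglia, Lgals3 (1.27), Tyrobp (-0.79) and Cst7 (-3.92) are filled. Filled points include calls that are not read, as that of Cst7 here.

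Astrocytes were compared because Apoe is their product as well. Over microglia Apoe gave a log2 fold change of -0.17 (SE 0.440, edgeR adjusted p 0.789), and over MHC-II cells 0.37 (SE 0.612, 0.659). Leaving out each library in turn gave -0.48 to 0.14 and -0.26 to 1.03, so neither direction was settled. In the first of these, 43.1% of 5363 genes passed, 20.7% as lower in astrocytes, beside 7 lower of 8 listed genes. In the second, 43.7% of 4204 genes passed, 18.7% as lower, beside 4 lower of 5. Genes that cleared the count minimum only through the phagocytes had to differ, so these counts are descriptions. Over the remaining non-phagocyte cells (50.4% of 10300 genes passed) astrocytes had Apoe higher by 4.55 (SE 0.329, 7.47e-07).

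Lpl separated neuronal classes. In D1 neurons it was higher than in the remaining non-phagocyte cells by 1.68 (SE 0.252, edgeR adjusted p 0.00138, with 29.2% of 11665 genes called), and in D2 neurons by 1.03 (SE 0.243, 0.0120, with 23.7% of 11081 called). Glutamatergic neurons, marked by vesicular glutamate transporters, had lower Lpl (-2.88, SE 0.480, 0.00515, with 20.1% of 10512 called). Without library 3 the calls in D1, D2 and glutamatergic neurons were lost (0.105, 0.158 and 0.259), and without library 1 that in D2 neurons (0.0518). Lpl was also lower in oligodendrocytes (log2 fold change -2.65, with 57.9% of 10281 genes called) and in endothelial cells (-2.93, with 44.9% of 9964 called).

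T cells held Cst7, while no Trem2 UMI was found in them. Against the remaining non-phagocyte cells Cst7, with 18 against 51 UMIs, cleared the count minimum through the T cells, so its call is not read. Without library 2 it was too low to be tested. The 0 Trem2 UMIs in 83 T cells allow shares of cells with a UMI of up to 11.5%, 6.52% and 27.3% in libraries 1 to 3. Tyrobp, which natural killer cells also use as an adaptor, was at 72.9, 177 and 550.4 CPM in T cells (2.28, SE 0.551, edgeR adjusted p 0.000528, with 18.5% of 9353 genes called). It did not pass with DESeq2 (0.0677) or without library 1 (0.108), 2 (0.402) or 3 (0.382).

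Mural cells, the contractile cells of vessel walls, had 5 higher of 7 listed genes tested, beside 29.0% of 9835 genes called, 11.4% as higher. A gene that clears the count minimum only through mural cells has to differ, so the count is a description. Spp1 was at 113, 2400 and 148 CPM there, and 1 cell held 445 of the 511 UMIs. Its log2 fold change was 4.11. Spp1 cleared the count minimum only through mural cells, so its call is not read. The call was lost without library 2 (edgeR adjusted p 0.189) or 3 (0.170). Without the 5 cells with most Spp1, 0 listed genes passed and Spp1 was at 1.39 (edgeR adjusted p 0.0629). Without non-phagocyte cells that held at least 5 UMIs of the C1q genes, which encode complement of phagocytes, Spp1 was at 2.80. Fibroblasts gave Spp1 at 615, 1977 and 429 CPM from 29 cells, too few for the test. Oligodendrocyte precursors had 0 listed genes called, beside 15.6% of 9730 genes.

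The genes differed in how they varied within microglia. Cells were split by the UMIs of the 2 gate genes, P2ry12 and Tmem119, and these values describe the gate and carry no test. Cells just inside the gate, with 1 such UMI (177 cells, median 893 UMIs), had Spp1 at 2334, 2008 and 376 CPM in libraries 1 to 3. Cells with 3 or more (156 cells, 12, 97 and 47 by library, median 1316 UMIs) had 58.4, 167 and 557 CPM. The values of library 1 in this group rest on its 12 cells and few molecules. Spp1 was thus lower in cells with more gate UMIs in libraries 1 and 2 and higher in library 3. Lgals3 was at 1800, 694 and 231 CPM with 1 gate UMI and at 0, 220.3 and 144 CPM with 3 or more, lower in each library.

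Apoe was at 40614, 23623 and 35552 CPM in cells with 1 gate UMI and at 14767, 12154 and 10871 CPM in cells with 3 or more, with no overlap. Trem2 ran the other way, at 2160, 748 and 665 CPM against 3152, 1542 and 1966 CPM, higher with 3 or more gate UMIs than with 1 in each library. Tyrobp had means of 3588 and 3768 CPM. Cst7 was at 298, 128 and 57.9 CPM with 1 gate UMI, 737, 469.8 and 229.8 CPM with 2, and 467, 187 and 233 CPM with 3 or more. Cst7 was thus lowest in each library in the cells with 1 gate UMI, where Spp1 was highest in libraries 1 and 2.

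**Figure D3:**
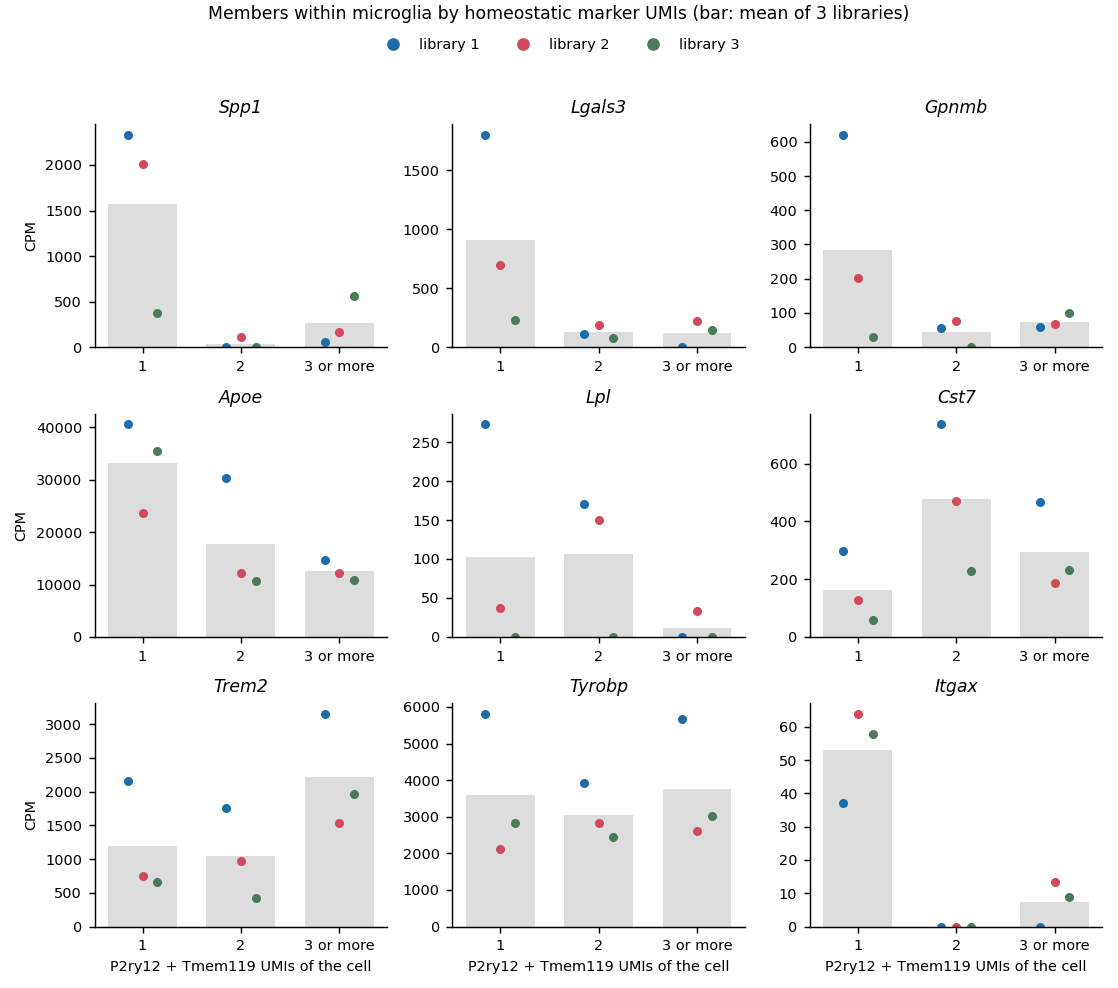
Level of each gene (CPM) in microglia with 1, 2 or 3 and more UMIs of P2ry12 and Tmem119, with 1 point per library and bars for the mean of 3 libraries. Mean Spp1 is 1573 CPM with 1 UMI and 261 CPM with 3 or more, whereas mean Trem2 is 1191 and 2220 CPM.

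At the MHC-II gate, cells just inside (a sum of 5 to 9, 37 cells) had Spp1 at 5244, 229 and 0 CPM and Lgals3 at 3119, 115 and 547 CPM in libraries 1 to 3. Library 1 was highest in both. Cells just outside (a sum of 3 or 4 that passed no other gate, 34 cells) had Spp1 at 1682, 15847 and 0 CPM and Lgals3 at 1376, 1547 and 0 CPM. Among microglia, the 69 cells that also reached 5 MHC-II UMIs had Spp1 at 59.4, 175 and 224 CPM, below the 1909, 979 and 500.5 CPM of the other 351 in each library.

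Cells with Spp1 differed in the other genes. A single Spp1 UMI in library 2 is no sign of expression, so the split was also made at 3 UMIs, reached by 11.6%, 3.36% and 4.17% of microglia and by 0%, 0.596% and 0% of D1 neurons in libraries 1 to 3. The 60 microglia with a Spp1 UMI (15, 37 and 8) had Lgals3 at 3245, 1095 and 853 CPM, against 389.6, 141 and 46.7 CPM in the 360 without. Gpnmb was at 1371, 382 and 539 CPM against 37.7, 25.6 and 0 CPM. Trem2 was at 2406, 1095 and 1078 CPM against 2174, 1192 and 1529 CPM. The 22 microglia with 3 or more Spp1 UMIs (10, 8 and 4) had Lgals3 at 4176, 2173 and 1162 CPM, Gpnmb at 1692, 838 and 820.3 CPM and Trem2 at 2376, 931 and 957 CPM. Lgals3 and Gpnmb were higher with Spp1 in each library, and Trem2 was higher in library 1 and lower in libraries 2 and 3, at either threshold.

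Cst7 was at 252, 102 and 179.7 CPM in microglia with Spp1 and at 452, 252 and 200.2 CPM without. It was lower in each library, though by little in library 3, which had 8 cells with Spp1. Median depth was 1974 UMIs with Spp1 and 963.5 without, so shares were compared at 1000 UMIs per cell. Of 35 thinned microglia with Spp1, 20 also had Lgals3 (57.1%), against 21 of 183 without (11.5%). The shares with Gpnmb were 22.9% and 1.09%, and those with Trem2 were 68.6% and 71.6%. These shares pool cells of 3 libraries, count single Spp1 UMIs and carry no test.

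In MHC-II cells the pattern included Trem2. The 9 and 20 cells with a Spp1 UMI in libraries 1 and 2 had Trem2 at 1822 and 766 CPM, against 623 and 110.1 CPM without. Of these, 4 and 5 cells held 3 or more Spp1 UMIs, with Trem2 at 2083 and 1190 CPM. Library 3 held 1 cell with Spp1, which had no Trem2 UMI. At 1000 UMIs per cell, 56.5% of 23 MHC-II cells with Spp1 had Trem2, against 18.4% of those without. Lgals3 was found in 56.5% and 42.5%.

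**Figure D4:**
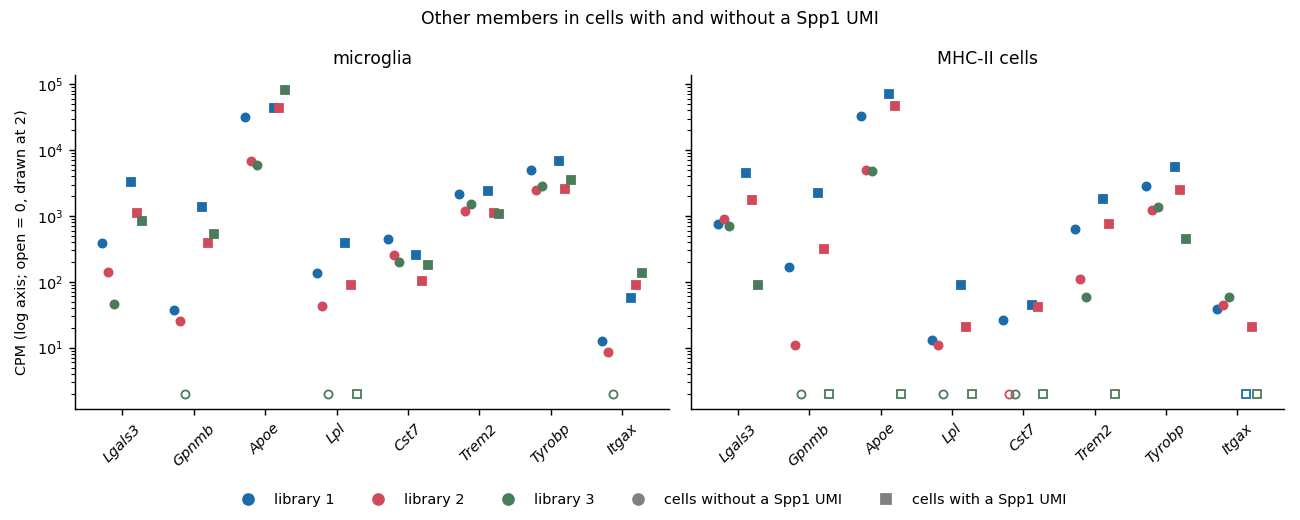
Level of the other genes (CPM, log axis) in cells without (circles) and with (squares) a Spp1 UMI, per library, for microglia and MHC-II cells; open points are at 0, drawn at 2. In microglia the squares of Lgals3 (853 to 3245 CPM) lie above its circles (46.7 to 389.6 CPM), whereas those of Trem2 overlap.

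Counted per cell at 1000 UMIs and without Apoe, which most classes held, microglia had 2.35 ± 0.608 of the genes detected (SD, n = 3 libraries) and MHC-II cells 1.63 ± 0.620. A share of 34.5% ± 19.4 of microglia and 20.2% ± 20.3 of MHC-II cells had 3 or more. T cells had 0.441 genes per cell over libraries 1 and 2 (10 and 27 cells), as library 3 held fewer than 10 at this depth. Microglia were above MHC-II cells within each library, at 3.05 against 2.24 genes, 2.04 against 1.65 and 1.96 against 1, and this was not tested.

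Genes whose level ran most like that of a listed gene were found over 39 sums of class and library, by Pearson's r of log2(CPM + 10) among 8901 genes. These sums share libraries and depth, and r is a description. Nearest to Trem2 were Csf1r (0.958), Ly86 (0.951) and C1qc (0.945), and to Tyrobp Fcer1g (0.944), C1qb (0.940) and Ncf1 (0.930). Lgals3 ran with Lyz2 (0.904), Spp1 with Cebpb (0.809) and Gpnmb with Ctsd (0.776). Apoe was nearest to Cst3 (0.854), Cst7 to Rasal3 (0.916), and Lpl to Slc32a1 (0.733), the vesicular transporter of GABA. Itgax was below the minimum level for this list.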

How the data were processed

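Counts of UMIs by gene and cell were deposited as whole numbers, made from 10x Genomics 3' v2 libraries, per the labels, with Cell Ranger 3.0 on mm10, per the submitters' processing notes. How cells were called, and from which annotation, is not given in the sources used here. Cells under 300 genes or over 20% mitochondrial UMIs were dropped, and the highest Scrublet scores (scanpy 1.11.5) were removed at 0.8% per 1000 cells (368 cells). Counts were summed per library and class and tested with edgeR 4.0.16 (TMM, filterByExpr, robust quasi-likelihood, Benjamini-Hochberg threshold 0.05, at least 10 cells per sum). The library was a block because both sums of a pair come from the same library. DESeq2 1.42.0 was an alternative, and the fit was tested on data simulated for MHC-II cells over microglia. There it recovered 44% of 200 genes changed 2-fold and 80% of 200 changed 4-fold, with 6 and 5 false calls. A gene that did not pass may thus still differ. CPM and shares use the UMIs and cells of a class; shares were also taken after thinning cells to 1000 UMIs. Exact 95% intervals and floors of 3 counts cover counting error only. The depth of the libraries was 2788685 to 14563414 UMIs. Beside all listed genes, named genes are up to 2 per pathway list and direction with the largest fold change among those that passed and moved the same way in all libraries, gate genes left out. Class names rest on marker gates. The genes, lists and gates were chosen with earlier results of these data known.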

Additional observations from a re-analysis of the deposited data

Results flagged for a closer look

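Cells that passed no gate were used in no comparison. Among the 1482 such cells, 197 (90, 87 and 20 in libraries 1 to 3) held at least 5 UMIs of the C1q genes, and each of the 9 listed genes was counted in them. They held 2917 UMIs of Spp1, 440 of Lgals3, 239 of Gpnmb, 13509 of Apoe, 38 of Lpl, 30 of Cst7, 300 of Trem2, 925 of Tyrobp and 14 of Itgax. The Spp1 UMIs are 31.0% of all in the cells used, against 5.48% in microglia and 3.87% in MHC-II cells. Mixed cells, which were set aside as well, held 32.2%, and neurons held 12.4%. Spp1 was at 2222, 20402 and 0 CPM in libraries 1 to 3, and 5 of these 197 cells held 61.3% of their Spp1 UMIs. Trem2 was at 1654, 863 and 1190 CPM. The 1285 other ungated cells had Spp1 at 64.4, 388 and 6.66 CPM and Trem2 at 44.4, 44.5 and 20 CPM. In libraries 1 and 2 Spp1 was higher in the C1q-positive cells. In library 3 a single UMI in the 20 C1q-positive cells is worth 59.5 CPM, so no direction can be read from its 0. Trem2 was higher in the C1q-positive cells in the 3 libraries. The difference was not tested.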

How the results depend on the processing

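No listed gene that passed a test changed direction under an alternative. Both sums of a pair come from the same library, so the library block belongs to the design; with no replicate block, MHC-II cells over microglia gave 173 genes in place of 294 and 1 listed gene in place of 3. In that comparison DESeq2 gave 163 genes, gates without the rule on mixed cells 148 (1 listed gene), no B or dendritic marker cells 187, and leaving out each library 107 to 231 (1 to 3 listed genes). Microglia over non-phagocyte cells gave 3671 genes, 1370 with mixed cells kept and 664 to 1753 without a library; a microglia gate of 3 UMIs left 5 listed genes in place of 8. MHC-II cells over non-phagocyte cells gave 2945 genes, 1250 with mixed cells kept and 0 to 602 without a library (0 to 4 listed genes in place of 7). DESeq2's scaling moved the median of all genes from -0.17 to -0.46 and from -0.42 to -0.82 in these comparisons. Listed genes without a library numbered 2 to 4 in astrocytes over MHC-II cells (4), 0 to 3 in D1 neurons (2), 1 to 3 in D2 neurons (4; DESeq2 2), 0 to 2 in glutamatergic neurons (2), 1 to 4 in astrocytes over the rest (2), 1 to 4 in endothelial cells (2), 0 to 2 in mural cells (5) and 0 to 2 in T cells (4; DESeq2 2). Without the 5 cells with most Spp1 and without C1q-positive cells, both chosen after seeing the data, mural cells gave 0 and 2. Mean shares in microglia moved with only cells of 1000 UMIs to 21.8% (Spp1), 25.9% (Lgals3), 29.4% (Cst7), 82.0% (Trem2), 93.9% (Tyrobp) and 4.12% (Itgax). A gate of 3 UMIs gave 5.22% (Lgals3), 27.9% (Cst7), 83.0% (Trem2) and 1.40% (Itgax), mixed cells kept gave 53.6% (Trem2) and 65.3% (Tyrobp), and thinning 1.64% (Itgax). In MHC-II cells, shares moved to 45.8% and 59% (Lgals3) and 73.1% and 84.5% (Tyrobp) without B or dendritic marker cells and with 1000 UMIs. Where no cause is stated it was not tested; fewer samples or cells enter by construction when a library or cells are left out. Comparisons of Mrc1 gate cells and of fibroblasts were not run, as a library held fewer than 10 cells. Depth limits Itgax, Lpl in phagocytes and library 3, with 21 MHC-II cells.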
